A study of Mus musculus with 9 samples.

Results

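The genes described here are 37 transcripts of immune cells, out of 78239 genes in the count table, measured in epithelial cell suspensions sorted from mouse colon and small intestine. They were taken by gene symbol from a list of T cell, B cell, myeloid and pan-leukocyte genes, and all 37 were found. The levels (CPM, defined below) of these genes in the same 9 libraries were known when the list was drawn up, so the genes count as selected on those levels, and their levels and differences are given as description. Counts of them called in the fits over all genes are printed beside the share of all genes called, and support nothing here. They fall into 5 roles: 6 genes of the T cell receptor complex and its Cd8a co-receptor, 4 genes of cytotoxic and intraepithelial lymphocytes, 5 of B cells and plasma cells, 5 of myeloid cells, and 17 that many white blood cells share.

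The study profiled poly(A) RNA of mice 8 weeks old that carry the Lgr5-2A-eGFP allele, in which a green fluorescent protein is made wherever the intestinal stem cell receptor Lgr5 is made. Crypts were loosened with a chelation buffer, split into single cells with TrypLE and sorted by fluorescence, with at least 30000 cells collected from each colon fraction and 50000 from each small intestine fraction. There were 3 libraries each of colon GFP-high cells, colon GFP-negative cells and small intestine cells; the labels call all of them epithelial, name no other gate in the sort and give no GFP fraction for the small intestine. The labels do not say that replicates came from separate animals, so the p-values below measure the spread between these libraries, which may be technical.

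White blood cells live within and beneath the gut lining. Intraepithelial lymphocytes, many of them T cells with Cd8a and granzymes, sit between epithelial cells, and resident macrophages, B cells and plasma cells that secrete immunoglobulin A lie in the connective tissue below. A suspension of epithelium may therefore carry their RNA, and each lineage can be read from genes of its own: the Cd3 chains for T cells, Cd79a and Ms4a1 for B cells, Jchain for cells that secrete polymeric antibody, and Csf1r for macrophages.

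The libraries held between 86621513 and 106673547 assigned counts and between 20715 and 28206 genes with a count, with 0.678% to 1.26% of counts from mitochondrial genes. Levels are CPM, assigned counts scaled to a common library total, on library sizes scaled by the deposited trimmed-mean (TMM) factors, and triplets of values are in the order of replicates 1, 2 and 3. In a library with no count for a gene, a count of 0 allows a level of up to 3 counts, which is 0.0232 to 0.0411 CPM depending on the library. That limit, and every interval below, covers counting error only. Lgr5 itself went against the labels of the colon replicate 2 pair: it read 43.5, 0.958 and 72.98 CPM in the GFP-high libraries, 2.84, 62.1 and 6.28 CPM in the GFP-negative ones and 57.9, 119.7 and 209 CPM in the small intestine. Those 2 libraries are therefore called the library labelled colon GFP-high 2 and the library labelled colon GFP-negative 2, and the group comparisons are also given without them. Epithelial genes were abundant in all 9 libraries, with the sum of 9 of them (Krt8 the most abundant by mean) between 12403 and 30887 CPM.

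Leukocyte transcripts were a small share of every library, and 3 colon libraries held most of them. The 37 genes took 0.0123, 0.0967 and 0.0361% of the counts in the colon GFP-high libraries, 0.0800, 0.0114 and 0.766% in the GFP-negative libraries and 0.0248, 0.0178 and 0.0554% in the small intestine. In colon GFP-negative 3, the highest, the 95% exact Clopper-Pearson interval of that share was 0.764% to 0.768%. Their summed level was 106, 1118 and 313 CPM in the GFP-high libraries, 898, 115 and 7844 CPM in the GFP-negative ones and 308, 173 and 457 CPM in the small intestine. The library labelled colon GFP-high 2, colon GFP-negative 1 and colon GFP-negative 3 stood above the other 3 colon libraries, which stayed between 106.4 and 313 CPM. These 3 were also the colon libraries with the lowest Lgr5, whichever fraction their labels name.

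The count of genes detected followed the same split. In the library labelled colon GFP-high 2 and in colon GFP-negative 1, 36 of the 37 genes exceeded 1 CPM, and in colon GFP-negative 3 all 37 did. In the other colon libraries 5 or 6 did: 6 in GFP-high 1, 6 in GFP-high 3 and 5 in the library labelled GFP-negative 2. Colon GFP-high 1 had no count at all for 21 of the 37, the library labelled GFP-negative 2 for 10 and GFP-high 3 for 5. The small intestine lay between, with 33, 12 and 20 genes over 1 CPM. Colon GFP-negative 3 gave the highest level of 36 genes, and small intestine 3 that of the remaining one, Ptpn6. For 26 genes the 3 highest libraries were colon GFP-negative 3, colon GFP-negative 1 and the library labelled colon GFP-high 2. In bulk RNA, more cells of a type and more RNA per cell cannot be told apart, so a level here is neither a cell count nor a level per cell.

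**Figure D1:**
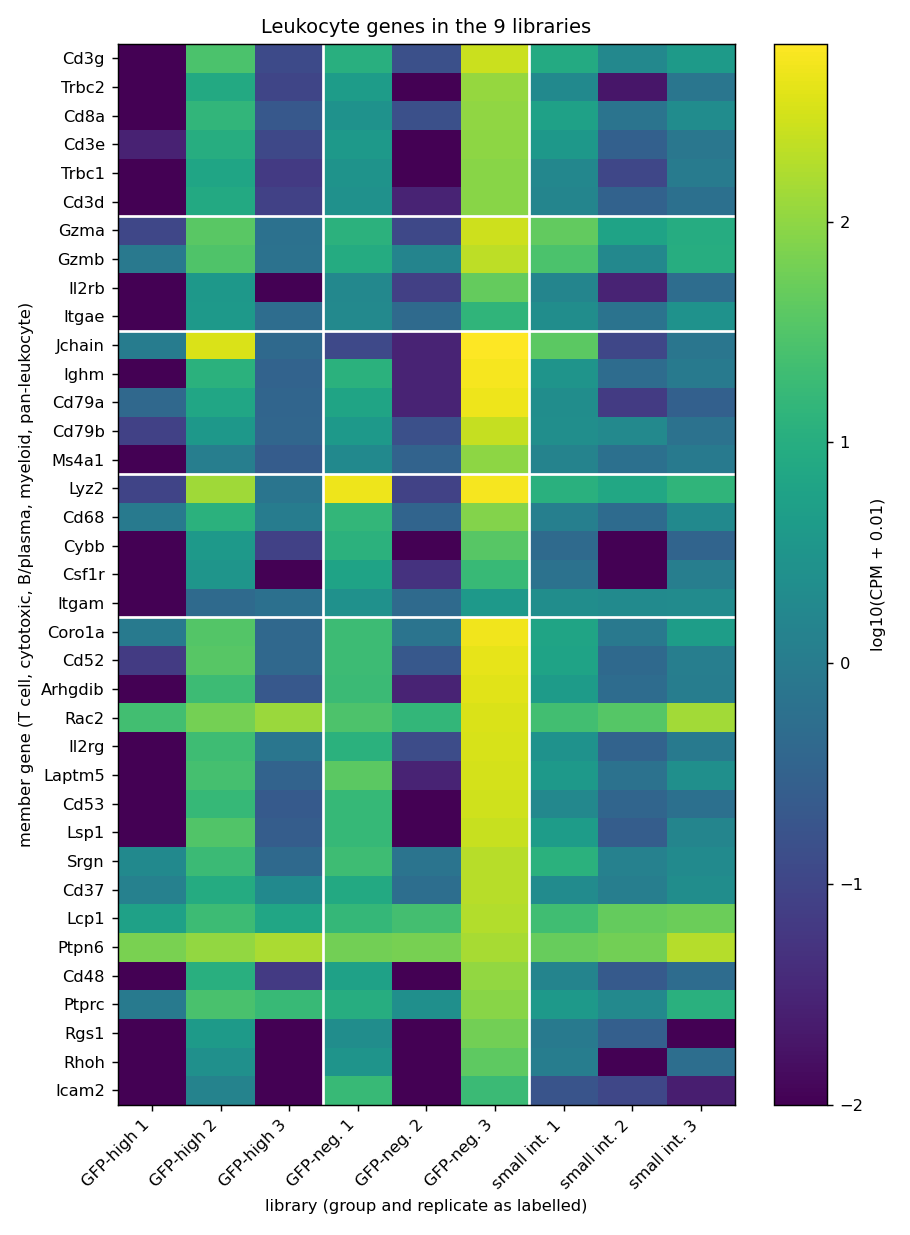
Levels of the 37 leukocyte genes (rows, in 5 blocks by role) in the 9 libraries (columns), as the base 10 logarithm of CPM plus a small constant. Colon GFP-negative 3 holds the highest value for 36 genes, and Ptpn6 and Rac2 are well above 1 CPM in every library.

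Genes of the T cell receptor complex were near 0 in 3 colon libraries and present in the other 3. Cd3e, the epsilon chain of the CD3 signalling complex (chromosome 9, 44998740 to 45009627, minus strand, GRCm38), read 0.0191, 10.005 and 0.102 CPM in GFP-high colon, 3.78, 0 and 98.7 CPM in GFP-negative colon and 3.62, 0.293 and 0.798 CPM in the small intestine. Cd3g, the gamma chain, was the most abundant of the 6, at 0, 27.8 and 0.112 CPM in the GFP-high libraries, 10.8, 0.140 and 261 CPM in GFP-negative and 8.62, 1.72 and 4.08 CPM in the small intestine. Cd3d, the delta chain, read 0, 8.31 and 0.0745 CPM, 2.73, 0.0199 and 87.5 CPM and 1.51, 0.312 and 0.597 CPM in the same order of groups. All 3 chains were highest in colon GFP-negative 3 and next in the library labelled colon GFP-high 2, and stayed at or under 0.140 CPM in colon GFP-high 1, colon GFP-high 3 and the library labelled GFP-negative 2, so the colon groups overlapped. Cd8a, a co-receptor chain that also marks intraepithelial T cells as a Cd8a homodimer, read 0, 14.3 and 0.205 CPM in the GFP-high libraries, 2.77, 0.140 and 102 CPM in GFP-negative and 5.51, 0.683 and 2.16 CPM in the small intestine. Trbc1, a constant gene of the T cell receptor beta chain, read 0, 6.76 and 0.0558 CPM, 2.92, 0 and 90.9 CPM and 1.70, 0.0976 and 0.984 CPM. Trbc2, the other such gene, read 0, 8.33 and 0.0931 CPM, 4.54, 0 and 112 CPM and 1.91, 0.00976 and 0.751 CPM.

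Trbc1 (chromosome 6, 41538218 to 41539881) and Trbc2 (chromosome 6, 41546730 to 41548352, both GRCm38, plus strand) are near-identical copies. In the GENCODE M21 transcripts their coding sequences of 518 bases matched at 495 positions (95.6%) and shared an identical run of 259 bases. How reads that fit both were counted is not given in the sources used here, so the split between the pair is uncertain, and the pair is best read as 1 signal. The last 60 coding bases, positions 459 to 518, hold 11 of the 23 differences, and are shown because reads there can tell the copies apart; capitals mark the differing bases.
Trbc1: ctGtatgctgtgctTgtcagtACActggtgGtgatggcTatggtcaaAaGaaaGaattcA
Trbc2: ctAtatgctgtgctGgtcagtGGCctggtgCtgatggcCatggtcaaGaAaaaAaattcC

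Genes outside the 37 describe the T cell RNA further, as ratios per transcript length within a library. Cd8b1, which pairs with Cd8a on conventional CD8 T cells, stood to Cd8a at 0.116 (0.0884 to 0.150) in the library labelled colon GFP-high 2, 0.733 (0.546 to 0.974) in colon GFP-negative 1 and 1.09 (1.05 to 1.13) in colon GFP-negative 3. The values in parentheses are 95% counting intervals, and no 2 of these 3 overlapped. In small intestine 1 and 3 the same ratio was 0.287 (0.207 to 0.389) and 0.0352 (0.00951 to 0.0910). Trdc, the constant gene of the delta chain of gamma-delta T cells, stood to Cd3e at 0.370 (0.325 to 0.420), 0.459 (0.370 to 0.567) and 0.280 (0.268 to 0.293) in the same 3 colon libraries, a narrower range. Cd4, the co-receptor of helper T cells, had 140 counts beside 9524 of Cd8a in colon GFP-negative 3, and no count beside 1311 of Cd8a in the library labelled colon GFP-high 2. In small intestine 3 it had 88 beside 279. Icos, Ctla4 and Foxp3, of the same T cell list, had 598, 301 and 278 counts in colon GFP-negative 3. They had 28, 45 and 18 in the library labelled colon GFP-high 2 and 4, 0 and 1 in colon GFP-negative 1. Low Cd4 is therefore not read as absence of helper T cells. The 3 colon libraries thus differed in the proportion of Cd8b1 to Cd8a as well as in the amount of T cell RNA.

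The cytotoxic and intraepithelial lymphocyte genes were the role in which small intestine 1 came nearest to the leukocyte-rich colon libraries: its median ratio to the library labelled colon GFP-high 2 was 0.774 over these 4 genes, against 0.110 to 0.324 over the other roles. Gzma, granzyme A, a protease of killer cell granules, read 0.0954, 38.2 and 0.614 CPM in GFP-high colon, 12.1, 0.0997 and 275 CPM in GFP-negative and 45.6, 6.03 and 9.59 CPM in the small intestine. Gzmb, granzyme B, read 0.878, 29.9 and 0.633 CPM, 9.01, 1.44 and 214 CPM and 28.1, 1.72 and 9.89 CPM in the same order. Both were present in all 9 libraries, with the small intestine values inside the range of the colon values. Per length, Gzma stood to Cd3e at 51.1 (45.1 to 58.1), 83.5 (57.9 to 125) and 48.7 (39.8 to 60.2) in the small intestine libraries. In the 3 colon libraries with most leukocyte counts it was 15.5 (14.4 to 16.7), 12.96 (11.4 to 14.8) and 11.3 (11.05 to 11.6), so no interval of one tissue reached the other. Colon GFP-high 3, with 11 counts of Cd3e, gave 24.3 (12.8 to 51.1), and its interval did overlap both.

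Il2rb, the beta chain of the interleukin 2 and 15 receptors, read 0, 3.69 and 0 CPM in GFP-high colon, 1.75, 0.0698 and 47.2 CPM in GFP-negative and 1.54, 0.0195 and 0.519 CPM in the small intestine. Itgae, the integrin chain that binds E-cadherin and holds lymphocytes in the epithelium, read 0, 3.74 and 0.503 CPM, 1.84, 0.449 and 14.1 CPM and 2.28, 0.674 and 2.85 CPM. Itgae stood to Cd3e per length at 0.333 (0.294 to 0.378) in the library labelled colon GFP-high 2 and 0.433 (0.352 to 0.531) in colon GFP-negative 1, against 0.128 (0.120 to 0.135) in colon GFP-negative 3. In small intestine 1, 2 and 3 the ratio was 0.560 (0.458 to 0.683), 2.05 (1.32 to 3.26) and 3.18 (2.55 to 3.999). Relative to Cd3e, Itgae was thus lowest in the library with the most T cell RNA, of the 7 with over 10 counts of Cd3e.

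**Figure D2:**
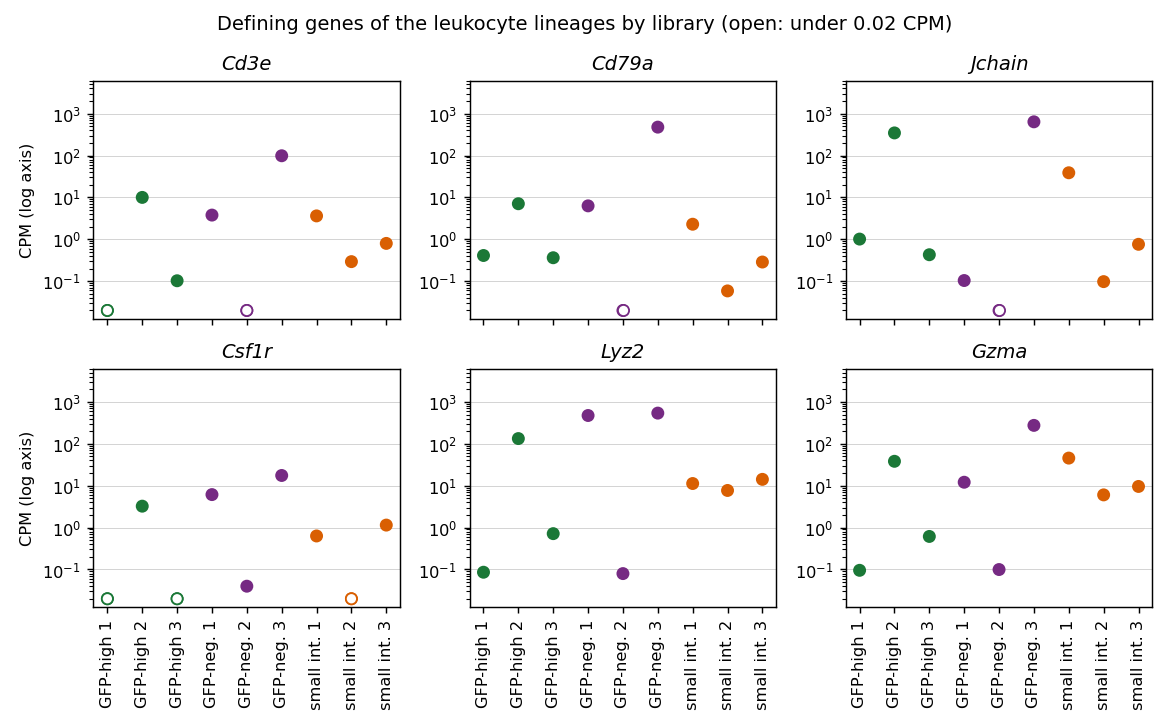
CPM on a log axis of 6 genes that define leukocyte lineages, 1 point for each of the 9 libraries in the 3 groups; open circles mark levels at or near 0. Cd3e spans from 0 to 98.7 CPM, while Lyz2 in colon GFP-negative 1 (474 CPM) nearly equals colon GFP-negative 3 (540.4 CPM).

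B cell transcripts were concentrated in colon GFP-negative 3. Cd79a, a signalling chain of the B cell receptor (chromosome 7, 24897381 to 24902197, plus strand, GRCm38), read 0.410, 7.07 and 0.363 CPM in GFP-high colon, 6.29, 0.0199 and 476 CPM in GFP-negative and 2.29, 0.0586 and 0.287 CPM in the small intestine. Cd79b, its partner, read 0.0764, 3.68 and 0.372 CPM, 3.88, 0.140 and 246 CPM and 2.32, 1.80 and 0.635 CPM. Ms4a1, which encodes CD20, read 0, 1.14 and 0.242 CPM, 1.89, 0.329 and 96.7 CPM and 1.41, 0.586 and 0.937 CPM. No library other than colon GFP-negative 3 passed 10 CPM for any of these 3 genes. Ighm, the constant region of immunoglobulin M, read 0, 11.6 and 0.326 CPM in the GFP-high libraries, 11.8, 0.0199 and 547 CPM in GFP-negative and 3.11, 0.488 and 0.914 CPM in the small intestine.

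Jchain, the joining chain of polymeric immunoglobulins made by plasma cells (chromosome 5, 88519809 to 88527891, minus strand, GRCm38), had a different order of libraries. It read 1.01, 346 and 0.428 CPM in GFP-high colon, 0.104, 0.0199 and 638 CPM in GFP-negative and 38.7, 0.0976 and 0.759 CPM in the small intestine. High levels were thus in 3 libraries, 1 of each group, and colon GFP-negative 1, with 6.29 CPM of Cd79a, had 8 counts of Jchain. Per length, Jchain stood to Cd79a at 28.4 (26.3 to 30.7) in the library labelled colon GFP-high 2, 0.775 (0.766 to 0.785) in colon GFP-negative 3, 9.80 (8.38 to 11.5) in small intestine 1 and 0.00955 (0.00410 to 0.0190) in colon GFP-negative 1. B cell and plasma cell genes were therefore not in a constant proportion between libraries.

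The constant genes of the antibody classes, which are not among the 37, divided the same libraries. Igha, the constant region of immunoglobulin A, read 0.00954, 1574 and 0.484 CPM in GFP-high colon, 0.661, 0.0399 and 701 CPM in GFP-negative and 208, 0.0391 and 4.25 CPM in the small intestine. Ighg1, a class of immunoglobulin G, read 0, 3.16 and 0.456 CPM, 0.0518, 0 and 1793 CPM and 0.439, 0 and 0.744 CPM. Ighg2b, another class of immunoglobulin G, read 0, 4.59 and 0.316 CPM, 0.0907, 0 and 886 CPM and 0.590, 0 and 0.550 CPM. Igha led in the library labelled colon GFP-high 2 and in small intestine 1, at 96.2 (90.6 to 102) and 47.3 (41.5 to 54.2) per Ighm by length. Colon GFP-negative 3 was the library with immunoglobulin G: Ighg1 there was 2.39 (2.36 to 2.41) per Ighm, and Igha 0.906 (0.896 to 0.917). Colon GFP-negative 1 had little of either, with Igha at 0.0396 (0.0292 to 0.0525) and Ighg1 at 0.00319 (0.000869 to 0.00821) per Ighm. Igkc, the kappa light chain constant gene, was listed at 0 counts in 8 libraries and at 4 in colon GFP-negative 3; it lies inside the gene Gm30211 on the same strand in GENCODE M21, and how reads in such overlaps were counted is not given in the sources used here.

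**Figure D3:**
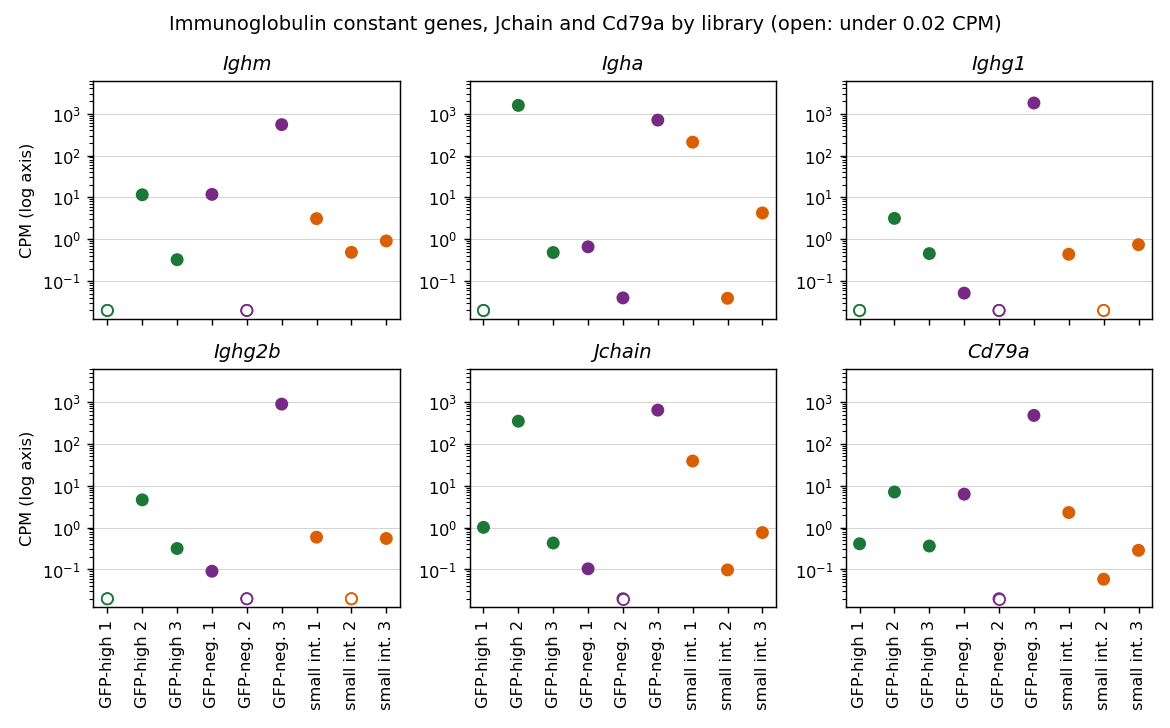
CPM on a log axis of Ighm, Igha, Ighg1, Ighg2b, Jchain and Cd79a in the 9 libraries, 1 point each; open circles mark levels at or near 0. Igha is highest in the library labelled colon GFP-high 2 (1574 CPM), while Ighg1 passes 10 CPM only in colon GFP-negative 3 (1793 CPM).

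Myeloid genes were shared more evenly by colon GFP-negative 1 and 3. Lyz2, lysozyme of macrophages and granulocytes, read 0.0859, 133 and 0.717 CPM in GFP-high colon, 474, 0.0797 and 540.4 CPM in GFP-negative and 11.3, 7.69 and 14.2 CPM in the small intestine. Cd68, a lysosomal protein of macrophages, read 0.888, 11.7 and 1.01 CPM, 14.9, 0.339 and 82.7 CPM and 1.17, 0.459 and 1.94 CPM. Csf1r, the receptor for the growth factor that macrophages depend on, read 0, 3.24 and 0 CPM, 6.13, 0.0399 and 17.5 CPM and 0.631, 0 and 1.15 CPM. Each of the 3 was high in colon GFP-negative 3, colon GFP-negative 1 and the library labelled colon GFP-high 2, in that order. Cybb, the membrane subunit of the phagocyte NADPH oxidase, read 0, 4.01 and 0.0745 CPM in the GFP-high libraries, 12.5, 0 and 36.5 CPM in GFP-negative and 0.439, 0 and 0.341 CPM in the small intestine. Itgam, the integrin chain CD11b, read 0, 0.446 and 0.596 CPM, 2.66, 0.449 and 3.81 CPM and 2.28, 2.01 and 2.09 CPM, and its small intestine levels were exceeded by colon GFP-negative 1 and 3 alone. Itgam overlaps the gene Gm49368 on the same strand.

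The 5 myeloid genes made up 56.7% of the summed level of the 37 genes in colon GFP-negative 1, against 13.7% in the library labelled colon GFP-high 2 and 8.68% in colon GFP-negative 3. Lyz2 stood to Cd3e per length at 388 (346 to 437) in colon GFP-negative 1, 41.3 (38.6 to 44.2) in the library labelled GFP-high 2 and 16.98 (16.6 to 17.4) in colon GFP-negative 3. Outside the 37, the macrophage and monocyte list of 19 genes was divided between colon GFP-negative 1 and 3: 6 were lower in GFP-negative 3, 8 were over 4 times as high there, and the median ratio of GFP-negative 3 to 1 was 1.07 over the 18 with more than 3 counts in GFP-negative 1. Adgre1 and C1qb were among the 6, and Ly6c2, a monocyte surface antigen, and Tyrobp, a signalling adaptor, among the 8, at 2.80, 0.0399 and 56.5 CPM and 33.7, 0 and 148 CPM in the GFP-negative libraries. Adgre1, which encodes the macrophage marker F4/80, read 18.97, 0 and 9.97 CPM in the 3 GFP-negative libraries and 1.86 CPM in the library labelled GFP-high 2. C1qb, a complement subunit made by tissue macrophages, read 66.2, 0.0199 and 46.6 CPM and 15.4 CPM in the same libraries.

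Lyz2 (chromosome 10, 117277331 to 117282321) has a near-identical neighbour, Lyz1 (chromosome 10, 117287797 to 117292868, both GRCm38, minus strand), the lysozyme of Paneth cells, which live in small intestine crypts. Their coding sequences of 444 bases in the GENCODE M21 transcripts matched at 422 positions (95.05%) and shared an identical run of 118 bases. Coding bases 61 to 120 hold 9 of the 22 differences and are shown because Lyz2 can be read as a myeloid gene in the small intestine only as far as reads separate it from Lyz1; capitals mark the differing bases.
Lyz1: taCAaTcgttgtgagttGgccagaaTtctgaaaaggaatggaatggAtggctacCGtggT
Lyz2: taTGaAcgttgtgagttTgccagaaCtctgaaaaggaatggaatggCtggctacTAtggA
Lyz1 read 9598, 9304 and 6208 CPM in the small intestine, 4.56, 60.5 and 2.89 CPM in GFP-high colon and 49.1, 4.29 and 115 CPM in GFP-negative. By edgeR's quasi-likelihood test with Benjamini-Hochberg adjustment it was lower in both colon fractions than in the small intestine, with log2 fold changes of -8.53 ± 1.72 (standard error, edgeR adjusted p = 0.0242) for GFP-high and -7.22 ± 1.63 (standard error, edgeR adjusted p = 0.0367) for GFP-negative. The first call was lost in 7 of 17 alternatives, among them without colon GFP-high 1 or 3, colon GFP-negative 1, or small intestine 1 or 3 (adjusted p from 0.0515 to 0.0775, edgeR). The second was lost in 8 of 17, among them without any 1 GFP-negative or small intestine library (0.0591 to 0.152, edgeR). Lyz2 per Lyz1 was 0.00113 (0.00105 to 0.00121), 0.000794 (0.000739 to 0.000851) and 0.00219 (0.00209 to 0.00229) in the small intestine, against 9.25 (8.95 to 9.57) in colon GFP-negative 1. In the small intestine the share of Lyz2 counts that came from Lyz1 RNA was not tested, so the 7.69 to 14.2 CPM of Lyz2 there are not read as myeloid.

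The pan-leukocyte genes split into a larger set that followed the T cell, B cell and myeloid genes and 4 that did not. Coro1a, an actin regulator of blood cells, read 0.954, 33.5 and 0.410 CPM in GFP-high colon, 19.6, 0.698 and 492 CPM in GFP-negative and 6.28, 0.859 and 4.68 CPM in the small intestine. Cd52, a small surface glycoprotein of lymphocytes and monocytes, read 0.0573, 36.3 and 0.419 CPM, 19.4, 0.199 and 428 CPM and 6.17, 0.430 and 1.15 CPM. Arhgdib, an inhibitor of small GTPases found in blood cells, read 0, 19.6 and 0.205 CPM, 18.9, 0.0199 and 394 CPM and 4.37, 0.498 and 1.06 CPM. These 3 and Laptm5 stayed under 1 CPM in colon GFP-high 1, colon GFP-high 3 and the library labelled GFP-negative 2 and were highest in colon GFP-negative 3. Laptm5, a lysosomal membrane protein of blood cells, read 0, 23.9 and 0.326 CPM in the GFP-high libraries, 39.1, 0.0199 and 317 CPM in GFP-negative and 3.88, 0.625 and 2.51 CPM in the small intestine. Icam2, an adhesion molecule of leukocytes and of blood vessel lining, read 0, 1.37 and 0 CPM, 17.4, 0 and 19.1 CPM and 0.165, 0.0976 and 0.0155 CPM, and was nearly level between colon GFP-negative 1 and 3. Of 8 endothelial genes Cdh5, the defining cadherin of vessel lining, had no count in any library, and their sum was 4.48 to 23.8 CPM. Cdh5 overlaps the gene Gm29682, and how reads in overlaps were counted is not given. Pecam1 and Emcn had 573 and 124 counts in colon GFP-negative 3 against 51 and 0 in colon GFP-negative 1, while Egfl7, Esam and Tek were lower in colon GFP-negative 3. The part of vessel cells in the Icam2 levels was not tested.

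The other 8 of this larger set were Cd53 and Cd37 (tetraspanins), Il2rg (the shared cytokine receptor chain), Lsp1, Srgn (a granule proteoglycan), Cd48, Rgs1 (a regulator of G protein signalling) and Rhoh. In colon GFP-negative 3 they lay between 41.3 CPM (Rhoh) and 319 CPM (Il2rg). In the library labelled colon GFP-high 2 they lay between 2.60 CPM (Rhoh) and 31.1 CPM (Lsp1), and in colon GFP-negative 1 between 2.23 CPM (Rgs1) and 20.5 CPM (Srgn). None passed 2 CPM in colon GFP-high 1, colon GFP-high 3 or the library labelled GFP-negative 2. Small intestine 1 was the highest small intestine library for 7 of the 8, the exception being Cd37 at 2.08, 1.13 and 2.22 CPM. The 13 genes of the larger set summed to 4.21, 228 and 4.93 CPM in the GFP-high libraries, 199, 2.29 and 3103 CPM in GFP-negative and 47.2, 6.36 and 17.7 CPM in the small intestine.

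Many leukocyte promoters carry a box for the blood cell factor PU.1, so the 300 bases around the start sites (250 before, 50 after) were searched for its letters GAGGAAGT on both strands. In the RefSeq windows for GRCm38.p6, 3.20% of 32851 windows held it. Of the 37 genes 24 had a window and 13 had none. Of the 30 windows of these 24 genes, 2 held the letters: a window of Cd37 (chr7:45238790-45239089, minus strand) and a window of Cd53 (chr3:106790100-106790399, minus strand). A match of letters is not a binding site. Most of the 37 genes were low in the same 3 colon libraries, so nothing about that pattern is read from the letters. Both windows are shown 5′ to 3′ along the gene, because they hold the only matches found, with the match in capitals. It lies on the opposite strand and therefore reads as ACTTCCTC.
Cd37: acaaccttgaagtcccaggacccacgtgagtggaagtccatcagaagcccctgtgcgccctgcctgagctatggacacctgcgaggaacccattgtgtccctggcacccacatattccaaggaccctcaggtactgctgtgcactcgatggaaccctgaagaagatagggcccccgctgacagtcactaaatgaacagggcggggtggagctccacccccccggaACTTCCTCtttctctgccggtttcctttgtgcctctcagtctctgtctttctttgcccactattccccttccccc
Cd53: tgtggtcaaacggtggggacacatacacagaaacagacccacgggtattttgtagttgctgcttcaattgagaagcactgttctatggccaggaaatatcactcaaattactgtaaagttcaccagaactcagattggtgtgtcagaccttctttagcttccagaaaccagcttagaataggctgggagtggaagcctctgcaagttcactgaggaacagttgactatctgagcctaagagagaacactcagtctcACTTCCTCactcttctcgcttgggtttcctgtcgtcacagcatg

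Rac2, Ptpn6 and Lcp1 were present where the lineage genes were nearly absent. For Ptprc this held mainly in colon GFP-high 3. In colon GFP-high 1 it read 0.916 CPM, where Coro1a of the larger set read 0.954 CPM. Ptprc (chromosome 1, 138062861 to 138175708, minus strand, GRCm38) encodes CD45, the surface phosphatase by which leukocytes are usually recognised, and read 0.916, 26.7 and 17.3 CPM in GFP-high colon, 9.95, 2.49 and 89.7 CPM in GFP-negative and 3.99, 1.80 and 11.1 CPM in the small intestine. Rac2, a small GTPase of blood cells, read 22.1, 62.7 and 123 CPM, 28.7, 15.4 and 336 CPM and 22.2, 35.2 and 136 CPM. Ptpn6, the phosphatase SHP-1, read 70.2, 108 and 154 CPM, 59.3, 67.3 and 151 CPM and 49.3, 59.3 and 185 CPM. Colon GFP-high 3 shows the contrast: it had 17.3 CPM of Ptprc and 123 CPM of Rac2 but 0.102 CPM of Cd3e, 0.363 CPM of Cd79a and no count of Csf1r. Not every lineage gene was low in that library. Trac, of the T cell list, and Ly6g, of the neutrophil list, were higher there than in colon GFP-negative 1, with values given below. Lcp1, the actin bundler L-plastin, read 5.58, 19.4 and 7.07 CPM, 15.6, 23.8 and 176 CPM and 21.5, 45.8 and 52.4 CPM and each small intestine library lay above 4 or 5 of the 6 colon libraries.

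Across the 9 libraries, likeness of order was measured as the sum of rank differences from Cd3e, which is 0 for an identical order. It was 1 for Cd48, Cd53, Lsp1 and Trbc1 and 30 for Ptpn6, 22 for Lcp1, 16 for Rac2 and 14 for Ptprc and Itgam. The 17 pan-leukocyte genes made up 96.7% of the summed level in colon GFP-high 1 and 97.9% in colon GFP-high 3. Those sums rest mostly on Ptpn6 and Rac2, while Ptprc was at 0.916 CPM in colon GFP-high 1. Ptprc overlaps the gene A130071D04Rik on the same strand, and 15 of the 37 overlap some other gene, 6 of them on the same strand.

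Tuft cells are chemosensory cells of the epithelium that are known to make several proteins of blood cells. Their genes were highest in the 2 libraries where Ptprc, Rac2 and Ptpn6 were high and Cd3e, Cd79a and Csf1r low. The sum of 12 tuft cell genes was 219, 547 and 918 CPM in GFP-high colon, 193, 158 and 290.3 CPM in GFP-negative and 208, 369 and 1341 CPM in the small intestine, with all 12 detected in every library. Dclk1, a tuft cell kinase, read 23.4, 63.5 and 94.6 CPM, 21.6, 18.3 and 33.1 CPM and 15.4, 27.6 and 106 CPM. Trpm5, a taste transduction channel, read 15.7, 53.7 and 87.2 CPM, 18.5, 15.2 and 15.7 CPM and 17.97, 30.02 and 125 CPM. Colon GFP-high 3 and small intestine 3, which share a tag of unstated meaning in their library names, led both, as they led Rac2 and Ptpn6 among the libraries other than colon GFP-negative 3. The part of tuft cells in the levels of Ptprc, Rac2, Ptpn6 and Lcp1 was not tested.

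**Figure D4:**
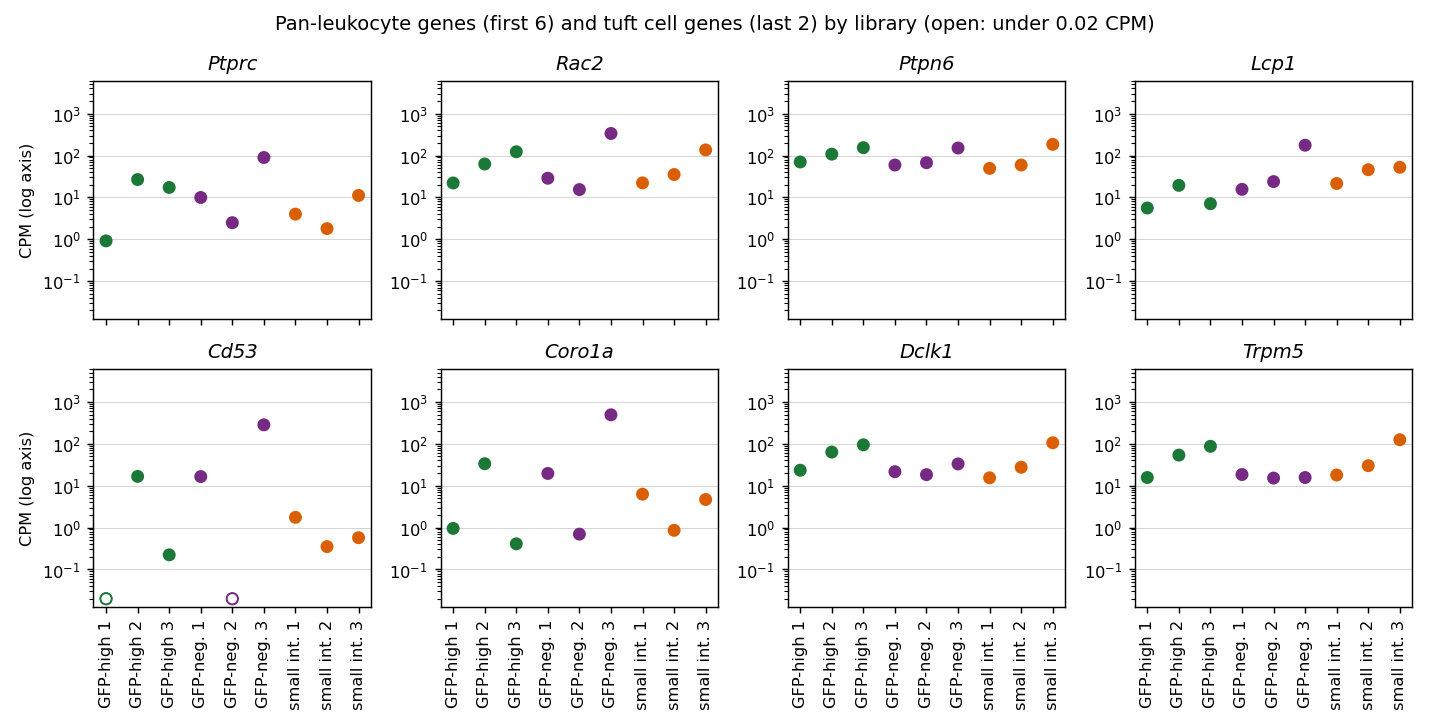
CPM on a log axis of 6 pan-leukocyte genes and the tuft cell genes Dclk1 and Trpm5 in the 9 libraries, 1 point each; open circles mark levels at or near 0. Cd53 and Coro1a fall below 1 CPM in 3 colon libraries where Ptpn6 stays between 67.3 and 154 CPM.

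The 3 colon libraries rich in leukocyte RNA differed in lineage, as ratios of CPM between them show. Colon GFP-negative 3 over the library labelled GFP-high 2 gave 9.86 (9.22 to 10.6) for Cd3e, 67.4 (62.4 to 72.9) for Cd79a, 4.05 (3.97 to 4.13) for Lyz2 and 1.84 (1.82 to 1.87) for Jchain. The median over the T cell genes was 10.2, over the cytotoxic genes 7.18, over the B and plasma cell genes 66.9, over the myeloid genes 7.07 and over the pan-leukocyte genes 13.3. Colon GFP-negative 3 thus exceeded that library for every one of the 37, most for the B cell genes and least for Ptpn6, at 1.40 (1.36 to 1.44), and for Jchain. Igha went the other way, at 0.445 (0.441 to 0.450).

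Colon GFP-negative 3 over colon GFP-negative 1 gave medians of 28.6 for the T cell genes, 23.3 for the cytotoxic genes, 63.5 for the B and plasma cell genes, 2.86 for the myeloid genes and 15.0 for the pan-leukocyte genes. Lyz2, at 1.14 (1.13 to 1.16), and Icam2, at 1.09 (1.02 to 1.18), were nearly equal in these 2 libraries. The ratio for Cd3e was 26.1 (23.2 to 29.4). Of the macrophage and monocyte list Adgre1 and C1qb were lower in colon GFP-negative 3, at 0.526 (0.484 to 0.571) and 0.705 (0.677 to 0.734), and Ly6c2 and Tyrobp higher, at 20.2 (17.6 to 23.2) and 4.40 (4.22 to 4.59), with the list's median at 1.07.

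Colon GFP-negative 1 over the library labelled GFP-high 2 gave medians of 0.383 for the T cell genes, 0.395 for the cytotoxic genes, 1.02 for the B and plasma cell genes, 3.11 for the myeloid genes and 0.585 for the pan-leukocyte genes. Cd79a, at 0.890 (0.789 to 1.002), did not differ between them beyond counting error. Itgam, at 5.95 (4.24 to 8.54), and Icam2, at 12.7 (10.6 to 15.4), were the 2 with the highest ratios. These are comparisons of single libraries, and libraries of 1 group varied as much, so they describe these libraries and not the sorted fractions.

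**Figure D5:**
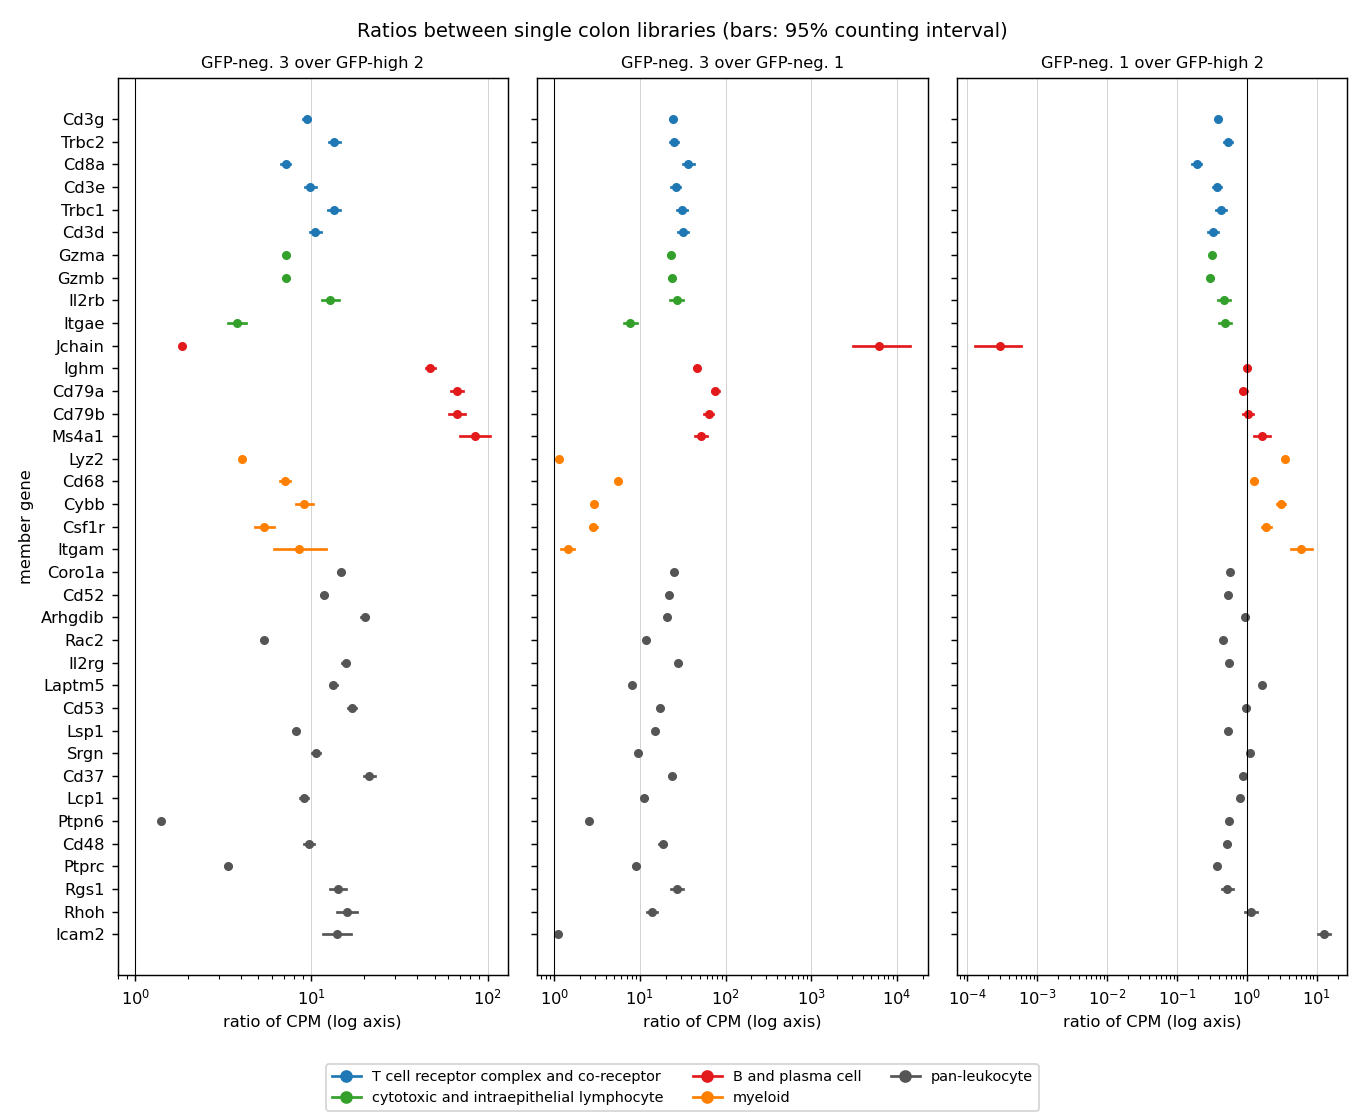
Ratios of CPM between single colon libraries (horizontal log axes) for the 37 genes (rows, coloured by role), with 95% counting intervals. By median, the B and plasma cell genes are farthest right in the first panel (66.9), and the myeloid genes are nearest to 1 in the second (2.86) and above 1 in the third (3.11).

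Small intestine libraries held RNA of the same lineages, and small intestine 1 led for 28 of the 37 genes. Its ratio to small intestine 2 was 12.4 (8.45 to 18.7) for Cd3e, 7.56 (6.93 to 8.25) for Gzma, 397 (215 to 828) for Jchain and 1.46 (1.33 to 1.62) for Lyz2. Lcp1, Ptpn6 and Rac2 were lower in small intestine 1 than in small intestine 2, at 0.469 (0.443 to 0.497), 0.831 (0.798 to 0.867) and 0.631 (0.595 to 0.670). Against the library labelled colon GFP-high 2, small intestine 1 reached 1.19 (1.14 to 1.25) for Gzma and 0.941 (0.888 to 0.996) for Gzmb but 0.362 (0.314 to 0.415) for Cd3e and 0.0997 (0.0790 to 0.124) for Cd68. The granzymes were thus near the level of that colon library while T cell receptor and macrophage genes were well under it.

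Markers of other cells moved with some of these levels. The sum of 6 enteroendocrine genes, all 6 of which had counts in 8 libraries and 5 in colon GFP-high 1, was 67.5, 10687 and 325 CPM in the GFP-high libraries, 2979, 81.1 and 3143 CPM in GFP-negative and 432, 339.9 and 515 CPM in the small intestine. Chga, chromogranin A of hormone-secreting cells, read 28.5, 4311 and 82.1 CPM, 1063, 18.7 and 1129.8 CPM and 102, 94.4 and 137 CPM, so the 3 colon libraries rich in leukocyte RNA were also the 3 richest in Chga. Red blood cell genes summed to 11.3, 0.0897 and 105 CPM in GFP-negative and to at most 18.3 CPM in any other library, most of it Hba-a1. The sum of 8 stromal genes, Pdgfrb the most abundant of them, was at most 6.32 CPM, in small intestine 1. Genes of MHC class II, which present antigen in leukocytes and in some epithelial cells, summed to 98.3, 949 and 95.1 CPM, 257, 45.9 and 8402 CPM and 4466, 4176 and 1705 CPM, with Cd74 the most abundant. Their part in the leukocyte levels was not tested.

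Whether leukocyte RNA differs between the GFP fractions of the colon was the first comparison. All 37 genes passed the expression filter, with 20910 genes tested in a single fit over the 9 libraries by edgeR's quasi-likelihood test with Benjamini-Hochberg adjustment. No gene of the 20910 was called at an adjusted p under 0.05 (0%), 230 (1.1%) had an unadjusted p under 0.05, DESeq2 called 1 (0.00478%) and limma-voom 0. Of the 37, edgeR therefore called 0, with 4 at an unadjusted p under 0.05, and DESeq2 and limma-voom called 0. Since the genes were chosen with these levels known, nothing is read from those counts. Their fitted log2 fold changes, GFP-high relative to GFP-negative, were negative for 36 and positive for Ptpn6, with a median of -3.43 and a range of -6.16 to 0.26, against a median of -0.02 over all genes tested. By role the medians were -5.92 for the B and plasma cell genes, -3.88 for the pan-leukocyte genes, -3.38 for the T cell genes, -2.87 for the myeloid genes and -2.86 for the cytotoxic genes. Standard errors were wide: Cd79a was at -5.95 ± 2.74, Lyz2 at -2.92 ± 2.43, Ptprc at -1.19 ± 1.37 and Jchain at -0.87 ± 3.10 (± standard error). The summed level was 513 ± 535 CPM over the 3 GFP-high libraries (mean ± SD, n = 3), the 3 GFP-negative libraries gave 2952 ± 4254 CPM, and no gene had groups that did not overlap, where 2.77% of all tested genes were wholly higher and 1.66% wholly lower in GFP-high.

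Single libraries decided that median. Without colon GFP-negative 3 it was 0.25, and without the library labelled colon GFP-high 2 it was -8.72. Without both libraries of the replicate 2 pair, whose Lgr5 goes against their labels, it was -9.30, and the remaining 2 GFP-high libraries summed to a mean of 209.6 CPM against 4371 CPM in the remaining 2 GFP-negative ones. Cd3e moved in the same way, from -3.34 ± 2.56 (standard error) to 0.80 without colon GFP-negative 3 and -9.10 without the library labelled GFP-high 2.

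The colon groups were next compared with the small intestine, whose 3 libraries both comparisons share. Of the 20910 genes, edgeR's quasi-likelihood test called 1143 (5.47%) between colon GFP-high and small intestine and 1147 (5.49%) between colon GFP-negative and small intestine. It called 0 of the 37 in either, with 0 and 8 at an unadjusted p under 0.05, where 20.3% and 20.8% of all genes were. Limma-voom called 0 of the 37 in both, where it called 5.07% and 5.02% of all genes. DESeq2 called 0 of the 37 in the first, where it called 13% of all genes. In the second it called 3 (Cd68, Coro1a and Cd37, all higher in the colon), where 9.1% of all genes were called higher. Without the colon replicate 2 pair, edgeR called 1 of the 37 lower in GFP-high (Lyz2; 0.531% of all genes) and 5 higher in GFP-negative (Icam2, Cd68, Cd37, Cd53 and Lyz2; 2.97% of all genes). Again the genes were chosen with these levels known, and nothing is read from these counts. Fitted log2 fold changes relative to the small intestine were positive for 30 of 37 in colon GFP-high, with a median of 1.40, and for 36 of 37 in colon GFP-negative, with a median of 5.08, against 0.02 and 0.00 over all genes tested. The cytotoxic genes were the role with a negative median in colon GFP-high, at -0.39, and had the lowest median in colon GFP-negative, at 2.37; the other roles had medians of 1.20 to 1.93 and of 4.76 to 5.72. Without the library labelled colon GFP-high 2 the first median over the 37 was -3.83, and with limma-voom it was -1.72. Without colon GFP-negative 3 the second median was 1.30. Itgam and Lcp1 were the 2 genes whose levels were lower in all 3 GFP-high libraries than in all 3 small intestine libraries, where 13% of all tested genes were (wholly higher 0, against 14.1%); in GFP-negative there were none, against 14.4% wholly higher and 12.9% wholly lower.

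Another 128 leukocyte genes, listed by lineage and outside the 37, were tested in the same fits. These lists too were drawn up with results of these data known. Of the 128, 106 passed the filter. Between the colon fractions edgeR's quasi-likelihood test called 0 of 106, with 6 at an unadjusted p under 0.05 and 0 called by DESeq2 or limma-voom, and the median log2 fold change was -3.13. Without the replicate 2 pair edgeR again called 0 of these leukocyte genes, with 86 at an unadjusted p under 0.05, where 1613 of all genes were. The filter passed 22051 genes in that fit rather than 20910, and 109 of these leukocyte genes rather than 106. The counts are therefore 86 of 109 and 1613 of 22051, and nothing is read from them, since the lists were drawn up with results known. Against the small intestine 4 of 106 were called for colon GFP-high (3 higher and 1 lower, where 3.8% and 1.66% of all genes were) and 5 of 106 for colon GFP-negative (4 higher and 1 lower, where 3.86% and 1.62% were). Their median log2 fold changes were 1.39 and 4.94.

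The genes that were called had levels in every colon library, the leukocyte-poor ones included. Some libraries of different groups share a tag in their names, whose meaning the labels do not give, and with that tag as a block every call named here against the small intestine was lost: for Fermt3, edgeR's adjusted p was then 0.0971 and 0.166, and for the other genes so called it was 0.0648 or more. That fit draws nothing on group differences from colon GFP-negative 3 or small intestine 1, whose tags no other library shares. Fermt3, an integrin activator of blood cells, read 14.7, 22.9 and 12.2 CPM in the GFP-high libraries, 17.8, 15.3 and 49.1 CPM in GFP-negative and 1.65, 1.33 and 0.798 CPM in the small intestine, with log2 fold changes against the small intestine of 3.73 ± 0.55 (standard error, edgeR adjusted p = 0.00671) and 4.45 ± 0.57 (standard error, edgeR adjusted p = 0.00350). Cma1, a protease of mast cells, had counts in all 6 colon libraries, at 11.3, 16.9 and 3.56 CPM and 21.98, 7.74 and 37.2 CPM, but 0, 0 and 2 counts in the small intestine (edgeR adjusted p = 0.00234 and 0.00173). Limma-voom did not call Cma1, with adjusted p = 0.108 and 0.0807. Another gene of the mast cell list, the mucosal protease Mcpt1, had the colon library order of the T cell genes of the 37. Mcpt1 read 0, 17.1 and 0.0745 CPM in the GFP-high libraries, 6.99, 0 and 183 CPM in GFP-negative and 3.04, 1.29 and 0.0775 CPM in the small intestine.

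Cd14, a co-receptor for bacterial lipopolysaccharide, read 167, 120.1 and 114 CPM in GFP-high colon, 156, 99.6 and 144 CPM in GFP-negative and 18.4, 47.1 and 35.4 CPM in the small intestine. Its log2 fold changes were 1.99 ± 0.37 (standard error, edgeR adjusted p = 0.0168) and 1.99 ± 0.37 (standard error, edgeR adjusted p = 0.0161). The Cd14 calls were lost in 4 of 18 alternatives in each comparison. Among these were leaving out small intestine 3 (adjusted p = 0.0596 and 0.0575, edgeR), the replicate 2 pair for the first (0.0557) and colon GFP-negative 1 for the second (0.0689). Ms4a7, a macrophage membrane protein, read 7.20, 3.94 and 1.90 CPM, 5.03, 3.73 and 5.08 CPM and 0.274, 0 and 0.155 CPM, and was called for GFP-negative alone, with a log2 fold change of 5.01 ± 1.22 (standard error, edgeR adjusted p = 0.0495). That call was lost in 12 of 18 alternatives, among them leaving out any colon library, or small intestine 1 or 3 (adjusted p from 0.0657 to 0.177); the difference between its 2 comparisons was not tested. Bcl11b, a T cell transcription factor, was the 1 called lower: it read 11.8, 5.45 and 10.6 CPM, 9.93, 16.1 and 9.82 CPM and 27.97, 41.1 and 39.6 CPM, with log2 fold changes of -1.96 ± 0.37 (standard error, edgeR adjusted p = 0.0173) and -1.60 ± 0.36 (standard error, edgeR adjusted p = 0.0371). Its calls were lost in 6 and 10 of 18 alternatives, among them leaving out colon GFP-high 3, small intestine 2 or small intestine 3 in either comparison (adjusted p from 0.0535 to 0.131) and, for GFP-negative, colon GFP-high 1, colon GFP-negative 1, colon GFP-negative 3 or small intestine 1 (0.0505 to 0.157).

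By lineage, none of the tested genes was called in either comparison for B cells (9 of 11 tested), plasma cells (7 of 10), gamma-delta T, NK and innate lymphoid cells (18 of 19), dendritic cells (8 of 11) or neutrophils and eosinophils (7 of 11). Fcmr was the most abundant B cell gene by mean over the 9 libraries and Igha the most abundant plasma cell gene. Ccl5, a chemokine of killer cells that led the third list, read 0.267, 43.4 and 0.298 CPM in the GFP-high libraries, 17.4, 0.159 and 340.1 CPM in GFP-negative and 21.2, 3.20 and 4.06 CPM in the small intestine. Irf8, the most abundant of the dendritic cell list, varied less between libraries, at 123, 106 and 131 CPM, 121, 157 and 104 CPM and 199.9, 186 and 136 CPM, unlike Ccr7, the homing receptor on the same list, at 0, 2.13 and 0.0745 CPM, 0.402, 0 and 61.9 CPM and 0.0274, 0.00976 and 0.170 CPM. Ly6g led the neutrophil and eosinophil list at 0, 3.83 and 12.6 CPM, 2.38, 0.319 and 22.8 CPM and 0, 0 and 0.0310 CPM. Of the T cell list Trac, the alpha chain constant gene, was the most abundant, at 1.24, 12.4 and 6.17 CPM, 4.72, 1.67 and 185 CPM and 3.33, 0.478 and 0.604 CPM. Of 20 further pan-leukocyte genes Gmfg had the highest mean, at 27.2, 66.1 and 17.2 CPM, 60.98, 29.8 and 87.8 CPM and 15.5, 2.96 and 4.36 CPM. Ptprcap was listed at 0 counts in all 9 libraries. It overlaps Coro1b and Rps6kb2, 1 of them on the same strand, and how reads in such overlaps were counted is not given, so the 0 is not read as absence. Between any 2 groups edgeR's quasi-likelihood test called none of the genes tested among the epithelial (9), tuft cell (12), enteroendocrine (6), MHC class II (7), stromal (4) and red blood cell (3) genes. Among 5 endothelial genes it called Esam lower in colon GFP-negative than in the small intestine; its log2 fold change was -2.28 ± 0.55 (standard error, edgeR adjusted p = 0.0475). That call was lost in 12 of 18 alternatives, among them without any 1 library but the library labelled GFP-negative 2 (adjusted p from 0.0507 to 0.179, edgeR).

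Epithelial cells also send signals to leukocytes, and 15 such genes were examined beside 7 of their receptors. Of the 15 signals, 2 were called, both lower in the colon in both comparisons. Ccl25, the chemokine that draws Ccr9-bearing lymphocytes to the small intestine, read 1574, 393 and 342 CPM there, compared with 14.8, 12.5 and 13.9 CPM in GFP-high colon and 11.2, 20.1 and 4.57 CPM in GFP-negative. Its log2 fold changes were -5.81 ± 0.81 (standard error, edgeR adjusted p = 0.00519) for GFP-high and -6.01 ± 0.82 (standard error, edgeR adjusted p = 0.00436) for GFP-negative. Btnl2, a butyrophilin-like gene, read 82.2, 11.5 and 46.7 CPM against 0.830, 2.04 and 1.88 CPM and 0.324, 1.48 and 2.08 CPM, with log2 fold changes of -4.89 ± 0.91 (standard error, edgeR adjusted p = 0.0173) and -5.17 ± 0.92 (standard error, edgeR adjusted p = 0.0137). The Btnl2 calls were lost in 8 of 18 alternatives for GFP-high and 3 of 18 for GFP-negative. Among these were leaving out the replicate 2 pair (adjusted p = 0.0877 and 0.0577, edgeR) and, for GFP-high, any GFP-high library or small intestine 1 or 3 (0.0526 to 0.0707, edgeR). Ccr9 itself read 1.01, 0.469 and 0.124 CPM in the small intestine, 0.964, 1.18 and 0 CPM in GFP-high colon and 0.259, 0.0399 and 8.30 CPM in GFP-negative. None of the 6 receptors tested was called, and Cxcr6, the most abundant of them, read 0, 2.84 and 0.0558 CPM, 1.22, 0 and 43.4 CPM and 0.877, 0.0391 and 0.744 CPM. Cxcr6 was high in the same 3 colon libraries as the T cell genes.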

How the data were processed

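Poly(A) RNA from 9 sorted samples was sequenced; per the submitters' processing notes STAR, Subread's featureCounts and edgeR were used with mouse build mm10, in an order and with versions not given in the sources used here, nor are the annotation release, strand setting and treatment of reads that fit several places. The deposited tables hold raw counts per gene, log2 CPM, RPKM and TPM (read only to learn what they hold) and, for each library, a library size and a TMM factor, a ratio made by the authors. That factor equalled a TMM factor computed from the counts here within 1e-06. CPM was computed as count over library size times factor; levels per length, used to compare genes within a library, divide by the gene length of the count table's annotation columns.

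Genes passing filterByExpr (20910; 57329 did not) were fitted over all 9 libraries with edgeR 4.0.16's quasi-likelihood test (R 4.3.3) and Benjamini-Hochberg adjustment at 0.05, with limma 3.58.1 (voom) and DESeq2 1.42.0 as alternatives. Other alternatives were total-count scaling, no filter, only the groups compared, blocks by replicate number and by library name tag, the colon replicate 2 pair left out, and each library left out. Each standard error given with a fold change is the absolute log2 fold change over the square root of the quasi-likelihood F statistic. It is therefore worked back from the test. The fit was tested on simulated counts. The 37 genes and all other lists (246 genes, 4 matched by Ensembl identifier under a newer symbol) were chosen with earlier results of these data known. Values per library are given for the genes of highest mean CPM of each role (up to 6), for Ptprc, Cd3e, Cd79a, Ms4a1, Csf1r and Itgam, and for genes whose library order differs most from Ptprc; of other lists, for called genes (at most 5) and the gene of highest mean, except that some genes are not reported here. Genes outside this rule (Cd8b1, Trdc, Cd4, Icos, Ctla4, Foxp3, Adgre1, C1qb, Ly6c2, Tyrobp, Ighg1, Ighg2b, Dclk1, Trpm5, Mcpt1, Ccr7 and Ccr9) were picked after their values were seen. Intervals are exact (Clopper-Pearson, 95%) and cover counting error only; the limit that a count of 0 allows is 3 counts.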

Additional observations from a re-analysis of the deposited data

How the results depend on the processing

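Between the colon fractions no leukocyte gene was called under any alternative run; DESeq2 called 1 gene of all. With 1 library left out at a time, the median log2 fold change over the 37 genes ranged from -8.72 to 0.25 there, and it was -9.30 without the colon replicate 2 pair. Against the small intestine it ranged from -3.83 to 2.06 for GFP-high and from 1.30 to 5.91 for GFP-negative. For GFP-high it was -1.72 with limma-voom, -1.64 when the tag in the library names was a block and -3.83 without the replicate 2 pair; for GFP-negative it was 1.92 with limma-voom and 2.00 with the tag as a block. Why limma-voom moved the medians was not tested. Colon GFP-negative 3 and small intestine 1 each have a tag that no other library shares. With the tag as a block each is fitted by its own term, so those medians rest on the remaining libraries. The other medians rest on at most 3 libraries a group, with leukocyte sums that differ over 10-fold within each colon group.

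Of all genes, GFP-high against small intestine gave 2714 calls with DESeq2, 504 without the pair, 18 with the tag as a block and 562 to 1331 with 1 library left out; GFP-negative gave 2874 with DESeq2, 1317 with no filter, 887 without the pair, 0 with the tag as a block (edgeR, 1630 at an unadjusted p under 0.05, with fewer degrees of freedom) and 528 to 1056 with 1 library left out. Of the 37, edgeR without the pair called 1 for GFP-high and 5 for GFP-negative, and DESeq2 called 3 for GFP-negative. Of the other leukocyte genes (106 tested, 126 with no filter, 109 without the pair), GFP-high gave 12 calls with DESeq2, 0 with the tag as a block and 2 to 5 with 1 library left out; GFP-negative gave 21 with DESeq2, 10 with no filter, 14 without the pair, 0 with the tag as a block and 2 to 6 with 1 library left out. TMM on the filtered genes, chosen after seeing the data, left 0, 1173 and 1166 calls over all genes.

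Deviations from the group means did not follow the replicate numbers. Correlations between same-numbered libraries ran from -0.601 to 0.301, and colon GFP-high 1 and 2, for example, each correlated best with a library of another number. The group means include the colon replicate 2 pair, whose Lgr5 goes against their labels, so these correlations cannot tell whether the samples were paired. With the replicate number as a block, calls over all genes were 505 for GFP-high and 522 for GFP-negative against small intestine, other leukocyte calls 2 and 2, and the medians over the 37 genes -3.42, 0.33 and 3.87.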

Other observations

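Some genes of the other leukocyte lists had levels that their lineage partners did not share. These were picked after their values were seen and are given as values. C1qa, which with C1qb and C1qc makes the complement component C1q, read 18.7, 63.5 and 10.7 CPM in the GFP-negative libraries, with its highest level in the library labelled colon GFP-negative 2. C1qb read 66.2, 0.0199 and 46.6 CPM and C1qc 63.2, 0.0399 and 32.4 CPM there, so that library held C1qa at its highest with the partner genes near 0. Ly6g, a neutrophil surface antigen, read 0, 3.83 and 12.6 CPM in the GFP-high libraries, while S100a9, an abundant neutrophil protein, read 0, 4.77 and 0 CPM, so colon GFP-high 3 had Ly6g with no count of S100a9.

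Vav1 and Fyb1, also called Fyb, signalling genes of blood cells, were high in the libraries with most tuft cell RNA. Vav1 read 9.49, 39.5 and 55.7 CPM in GFP-high colon, 17.9, 16.2 and 26.9 CPM in GFP-negative and 12.7, 23.1 and 84.02 CPM in the small intestine. Fyb1 read 4.67, 63.96 and 67.2 CPM, 18.3, 13.8 and 34.1 CPM and 11.3, 20.3 and 54.3 CPM. Spi1, which encodes the factor PU.1, had a different order, with 0.00954, 8.83 and 0.0465 CPM, 7.62, 0.0199 and 107 CPM and 0.795, 0 and 0.201 CPM, and was highest in the 3 colon libraries where the 37 genes were highest.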
